A study of Mus musculus with 9 samples.

Results

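Messenger RNA for 5 proteins that salivary glands release into saliva, Mucl2, Pip, Lpo, Amy1 and Smr3a, was followed in irradiated mouse submandibular glands. The members were chosen by name as secretory products of acinar cells, and their Ensembl identifiers were looked up among the 54532 gene rows of the count table. All 5 have a row, and 4 of them passed the filter on low counts. The libraries came from mice labelled wild-type (WT) and treated with 10 Gy of radiation, and were made by bulk RNA sequencing of submandibular gland tissue taken 30, 60 or 90 days later. Each time point has 3 libraries. Every group was irradiated, and non-irradiated glands were not analysed here, so each comparison is between irradiated time points. Time since irradiation cannot be told apart from the age of the mice, and the labels give neither the age nor the strain. The labels also do not say that the 3 libraries of a time point came from separate animals, so p-values measure only the spread between these libraries. Total counts ran from 16541396 to 26065856 per library, and the smallest libraries were those of 30 days. Counting error is therefore tiny for the abundant members, and the 95% Wilson interval of the Mucl2 share was never wider than ±0.0235 percentage points. Such intervals cover counting error only.

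Acinar cells are the secretory units of a salivary gland. They build proteins on the endoplasmic reticulum, pack them in granules, and release the granules when nerve signals, chiefly through muscarinic receptors, raise calcium in the cell. Mucl2 (mucin-like 2, also called Spt1) is a small secreted salivary protein. Pip (prolactin-inducible protein) is a small secreted protein that binds bacteria and other proteins. Lpo (lactoperoxidase) is a haem enzyme that uses hydrogen peroxide to turn thiocyanate into an antimicrobial oxidant. Amy1 encodes the starch-digesting enzyme alpha-amylase, which in the mouse is best known as a parotid product. Smr3a belongs to a family of small androgen-regulated submandibular proteins whose relatives are cleaved into short peptides. In bulk tissue a lower level can mean fewer acinar cells or less RNA in each of them, and these counts cannot tell them apart.

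The promoters are shown because the members' RNA levels lie orders of magnitude apart in the same tissue. Each line gives the 100 bases before the RefSeq start of a member (GRCm38.p6), 5′ to 3′ on the gene's own strand, and capitals mark a TATA-type match (TATAAA or TATATA, searched on both strands, overlaps allowed). The regions are chr15:103899313-103899412 (- strand) for Mucl2, chr6:41847449-41847548 (+ strand) for Pip, chr11:87826115-87826214 (- strand) for Lpo and chr5:88002425-88002524 (+ strand) for Smr3a. Amy1 has a pair of RefSeq starts, with upstream regions chr3:113577751-113577850 and chr3:113574763-113574862 (both - strand).
Mucl2: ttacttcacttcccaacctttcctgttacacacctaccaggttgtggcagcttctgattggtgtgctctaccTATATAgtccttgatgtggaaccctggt
Pip: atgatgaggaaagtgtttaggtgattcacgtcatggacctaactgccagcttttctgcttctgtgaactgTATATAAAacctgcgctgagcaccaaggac
Lpo: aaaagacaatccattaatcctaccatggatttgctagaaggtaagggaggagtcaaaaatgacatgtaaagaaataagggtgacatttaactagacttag
Amy1, first start: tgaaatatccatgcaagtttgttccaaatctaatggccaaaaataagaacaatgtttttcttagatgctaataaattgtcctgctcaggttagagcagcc
Amy1, second start: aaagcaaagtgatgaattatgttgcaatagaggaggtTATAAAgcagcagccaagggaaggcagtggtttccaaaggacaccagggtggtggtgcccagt
Smr3a: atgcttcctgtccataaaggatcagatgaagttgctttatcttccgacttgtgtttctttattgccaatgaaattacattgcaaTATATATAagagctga
The Mucl2 match began 28 bases before the start, and the overlapping Pip matches began 30 and 28 bases before it. The Smr3a matches began 16 and 14 bases before the start, and the match at the second Amy1 start began 63 bases before it. The letters were not present in the windows of Lpo and of the first Amy1 start. Among 32851 RefSeq mouse promoters, 7.03% hold such a match in the same 100 bases, and 3.53% hold one that begins 45 to 20 bases before the start. A match is a description of letters, and its relation to the RNA level was not tested. Mucl2 and the nearly undetected Smr3a both have one. Counted from the RefSeq starts, only the matches of Mucl2 and Pip among the members begin 45 to 20 bases before the start. The gene positions given below come from another annotation, GENCODE. Its starts for Pip (41847535) and Smr3a (88002549) differ from the RefSeq ones. Whether the matches of these 2 genes begin 45 to 20 bases before the start therefore depends on the start used. Gene-level counts do not separate the Amy1 starts.

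The members spanned the whole range of expression. Mucl2 was the most abundant gene of the gland in 9 of 9 libraries, both by counts and per kb. Per kb of the joined exons of all transcripts, Pip stood at rank 9 to 17 among all genes of the table. Lpo stood at rank 31 to 74 and Amy1 at rank 4180 to 8223 on the same measure. Per kb of transcript, the Mucl2 level was 18.1 to 31.3 times that of Pip, the Pip level was 46.2 to 76.4 times that of Lpo, and the Lpo level was 28.7 to 131 times that of Amy1. Over the joined exons of all transcripts the same ratios were 57.9 to 99.96, 12.2 to 20.1 and 46.6 to 212, so the order is the same with either length and the size of each step is not. Smr3a had 1 read in the 9 libraries together. Its label as an abundant saliva product does not hold in these files, and Amy1 was a low-level transcript in them.

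**Figure D1:**
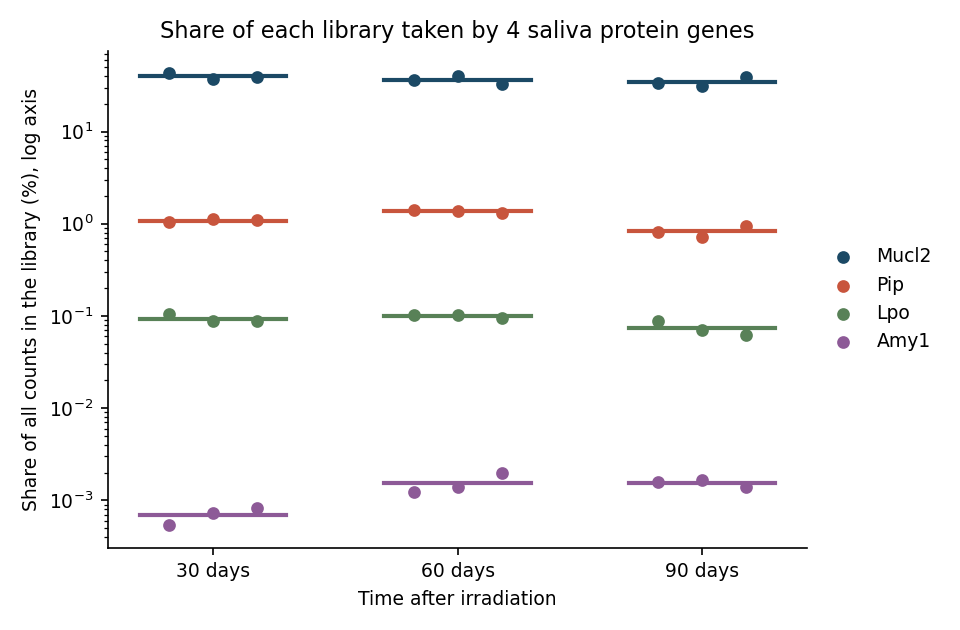
Share of all counts in each library, in percent on a log axis, for Mucl2, Pip, Lpo and Amy1 at 30, 60 and 90 days after irradiation. Points are single libraries and lines are means of 3; Mucl2 lies between 31.4% and 42.8%, and Smr3a, with 1 read in all, cannot be drawn.

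Mucl2 (ENSMUSG00000036925, chr15:103895855-103899312 on GRCm38, - strand, protein-coding) had 6377359 to 9817790 counts per library. Its share of all counts was 42.8%, 37.1% and 39.3% in the 3 libraries of 30 days, in the order of their replicate numbers. It was 36.5%, 39.6% and 32.8% at 60 days and 33.7%, 31.4% and 38.6% at 90 days. The highest library belonged to 30 days and the lowest to 90 days, and the time points overlapped. The mean share was 39.7% ± 2.84 (SD, n = 3) at 30 days, 36.3% ± 3.40 at 60 days and 34.5% ± 3.68 at 90 days. The time point accounted for 0.387 of the sum of squares of the share, and an exact permutation test over all 280 partitions of the 9 libraries, one-sided, gave p = 0.236 (the smallest possible is 0.00357). A change of the Mucl2 share with time was therefore not shown beyond the spread between libraries.

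The 5 members together held 32.1% to 43.9% of all counts, and 95.9% to 97.5% of those came from Mucl2. The other 4 members held 1.14%, 1.21% and 1.18% of counts at 30 days and 1.51%, 1.48% and 1.39% at 60 days. At 90 days they held 0.905%, 0.788% and 1.01%. These shares did not overlap between any pair of time points, and nearly all of this share is Pip. How often plain shares of other genes do not overlap was not computed. On the scaled levels given below, Pip overlapped between 30 and 60 days, so for Pip the separation of every pair was not kept there. On those levels 16.9% of all tested genes did not overlap between 30 and 60 days. The figure was 15.9% between 60 and 90 days and 23.2% between 30 and 90 days. Because one gene fills so much of each library, levels below are also given per 1000 Mucl2 counts of the same library.

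Levels between libraries are given as CPM, a gene's counts relative to the library total, after the total was scaled by the trimmed mean of M-values (TMM), a factor that keeps the bulk of genes level between libraries. The test was edgeR's quasi-likelihood F test across 15224 genes with Benjamini-Hochberg adjustment, and a gene was called at an adjusted p under 0.05. In the comparison of 60 against 30 days 1.56% of tested genes were called in either direction, in that of 90 against 60 days 0.256%, and in that of 90 against 30 days 3.57%. Of the 4 members tested, 1, 0 and 2 were called in these comparisons. Behind the 0 of 90 against 60 days stand Pip and Lpo, both with an unadjusted p under 0.05, and DESeq2 called both, limma-voom 1 of them. The CPM values of the time points did not overlap for 1, 2 and 3 of the 4 members, against 16.9%, 15.9% and 23.2% of all tested genes. The median log2 fold change of the 4 members was 0.16, -0.44 and -0.51, beside -0.0025, 0.0008 and 0.0135 over all tested genes.

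**Figure D2:**
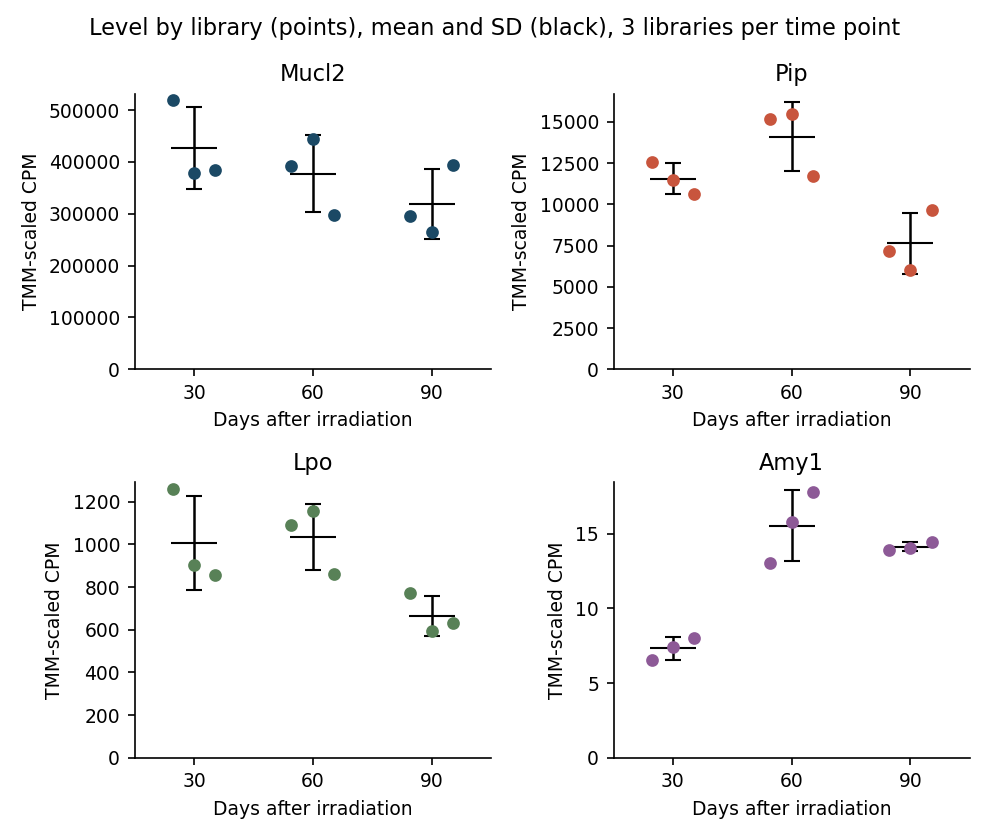
TMM-scaled CPM of Mucl2, Pip, Lpo and Amy1 against days after irradiation, with 1 point per library and black marks for the mean and SD of 3 libraries; each axis starts at 0. Pip and Lpo are lowest at 90 days, Amy1 is lowest at 30 days, and the Mucl2 time points overlap.

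For Mucl2 the TMM-scaled level was 427350 ± 79056 CPM (SD, n = 3) at 30 days, 377260 ± 74479 at 60 days and 318410 ± 67983 at 90 days. Going from 30 to 60 days its log2 fold change was -0.18 ± 0.26 (SE), from 60 to 90 days -0.24 ± 0.26, and over the whole interval -0.42 ± 0.26. Adjusted p was 0.842, 0.801 and 0.447, and Mucl2 was called in 0 of 18 alternatives for each comparison.

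Pip (ENSMUSG00000058499, chr6:41847535-41852065, + strand, protein-coding) had its highest mean at 60 days and its lowest at 90 days, and no difference between time points passed the threshold with TMM scaling and edgeR. Its share of counts was 1.03%, 1.13% and 1.09% at 30 days, 1.41%, 1.38% and 1.29% at 60 days, and 0.816%, 0.716% and 0.946% at 90 days. On this plain share the 3 time points did not overlap, and how often other genes do so on it was not computed. After TMM scaling the levels were 12546, 11485 and 10651 CPM at 30 days, 15139, 15469 and 11695 at 60 days, and 7161, 6040 and 9684 at 90 days. Here the 90-day libraries stayed below all others, and the third library of 60 days fell within the range of 30 days. The log2 fold change of 90 against 60 days was -0.89 ± 0.19 (SE), a ratio of 0.541, with an unadjusted p of 0.000195 and an adjusted p of 0.0587, just short of the threshold. For 90 against 30 days it was -0.60 ± 0.19 (adjusted p = 0.0925) and for 60 against 30 days 0.29 ± 0.19 (adjusted p = 0.592). The difference between 90 and 60 days passed the threshold in 8 of 19 alternatives, among them library-size scaling (log2 fold change -0.72, adjusted p = 0.0199) and limma-voom (-0.89, adjusted p = 0.0266). It also passed without the first library of 30 days (adjusted p = 0.0333), without the third of 60 days (0.0207) and without the third of 90 days (0.0266). The difference between 90 and 30 days passed in 4 of 19 alternatives, DESeq2 (adjusted p = 0.00376), limma-voom (0.0478), no filter on low counts (0.000242) and without the third library of 90 days (0.0476).

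Lpo (ENSMUSG00000009356, chr11:87806428-87828289, - strand, protein-coding) was lower at 90 days. Its levels were 1258, 902 and 859 CPM at 30 days, 1091, 1156 and 861 CPM at 60 days, and 771, 595 and 631 CPM at 90 days. The 30-day and 60-day libraries covered the same range, and each 90-day library lay below all 6 of them. From 30 to 90 days Lpo fell by 0.60 ± 0.16 (SE) on the log2 scale, a ratio of 0.661, with an adjusted p of 0.0454. From 60 to 90 days the log2 fold change was -0.64 ± 0.16 with an adjusted p of 0.122, past the threshold in 5 of 19 alternatives, and from 30 to 60 days it was 0.04 ± 0.16 with an adjusted p of 0.952. The call at 90 against 30 days was lost under library-size scaling (log2 fold change -0.35, adjusted p = 0.209), with the members left out of the library total (-0.48, 0.0614), and relative to Mucl2 (-0.13, 0.706). It was also lost without the first library of 30 days (-0.41, adjusted p = 0.258), the second of 30 days (-0.67, 0.0742), the second of 60 days (-0.60, 0.0703), the second of 90 days (-0.53, 0.213) or the third of 90 days (-0.56, 0.170).

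Amy1 (ENSMUSG00000074264, chr3:113555710-113606699, - strand, protein-coding) moved the other way. It had 92, 125 and 136 counts in the 30-day libraries, 303, 349 and 426 at 60 days, and 412, 409 and 288 at 90 days. The levels were 6.52, 7.42 and 8.04 CPM at 30 days, 13.1, 15.8 and 17.8 CPM at 60 days, and 13.9, 14.0 and 14.4 CPM at 90 days. The 6 libraries of 60 and 90 days all lay above the 3 libraries of 30 days, and the 90-day values fell inside the range of 60 days. Between 30 and 60 days Amy1 rose by 1.08 ± 0.15 (SE) on the log2 scale, a ratio of 2.11, with an adjusted p of 0.000954. From 30 to 90 days the log2 fold change was 0.94 ± 0.15, a ratio of 1.92, with an adjusted p of 0.00153. From 60 to 90 days it was -0.14 ± 0.14 (adjusted p = 0.791). Both calls against 30 days were made in 19 of 19 alternatives, with log2 fold changes from 0.98 to 1.28 and from 0.87 to 1.37.

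The Amy1 reads have limits of their own. Of the 50-base stretches in its joined exons, 31.8% are shared with Rnpc3, a gene on the same strand whose annotation overlaps it. Rnpc3 lay between 11.2 and 18.5 CPM and was not called in any of the 3 comparisons. The 6 pancreatic-type amylase genes Amy2a1 to Amy2a5 and Amy2b had 0 counts in every library, and each shares 0.943% to 1.503% of these stretches with Amy1. How the counting treated shared stretches is not given in the sources used here.

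**Figure D3:**
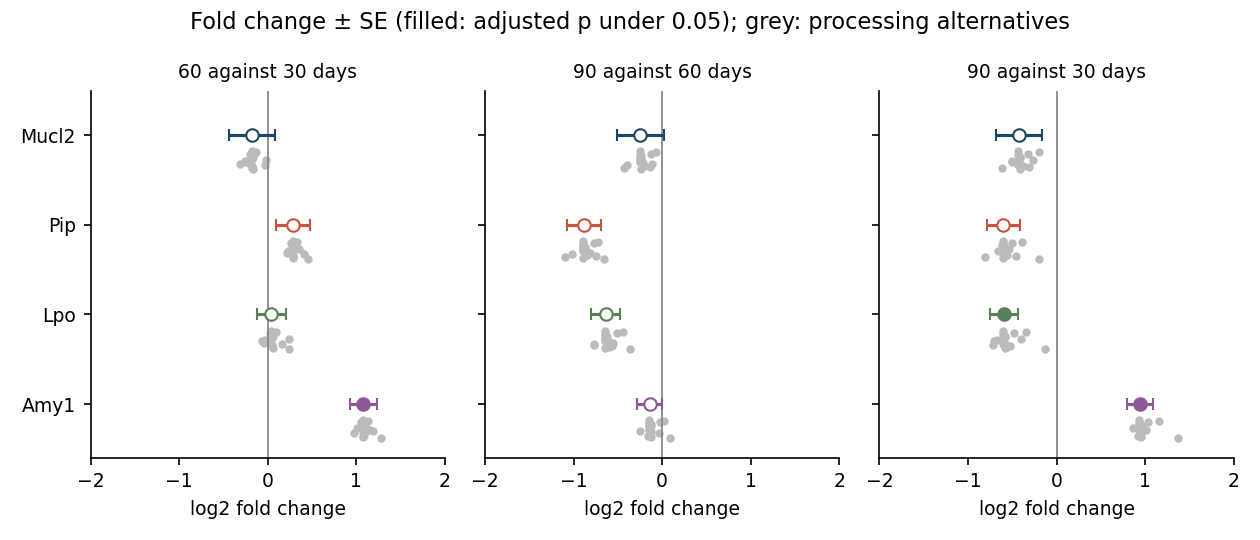
Log2 fold change (x axis) of Mucl2, Pip, Lpo and Amy1 in the 3 pairwise comparisons, with SE bars, filled circles for an adjusted p under 0.05 and grey points for the processing alternatives. Amy1 stays to the right of 0 in both comparisons with 30 days, and Pip and Lpo stay to the left of 0 in both comparisons with 90 days.

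Smr3a (ENSMUSG00000029280, chr5:88002549-88008534, + strand, protein-coding) had a single read, in the second library of 90 days. In the other 8 libraries a count of 0 allows up to 0.115 to 0.181 CPM, the value of 3 counts. It did not pass the filter and was not tested. Of its 50-base stretches, 41.9% are shared with the overlapping gene model Gm28434, which had 0 counts in all libraries. Reads from shared stretches that the counting gave to no gene would be in neither row, and the unshared stretches gave no more than the 1 read. Its neighbour Smr2, of the same family, had 50 counts in the 9 libraries together.

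Set against Mucl2 in the same library, Pip had 24.2, 30.3 and 27.7 counts per 1000 Mucl2 counts at 30 days, 38.7, 34.9 and 39.4 at 60 days, and 24.2, 22.8 and 24.5 at 90 days. Lpo had 2.43, 2.38 and 2.23 at 30 days, 2.79, 2.61 and 2.90 at 60 days, and 2.60, 2.25 and 1.60 at 90 days. For both genes every 60-day library lay above every library of the other time points, by a very narrow margin for Lpo. Among tested genes other than Mucl2, 0.236% showed this pattern, which was picked out after the values were seen. On this scale the median change over all tested genes was 0.25 (log2) in 90 against 60 days. Most genes were thus lower at 60 than at 90 days, and the 0.236% is not a measure of chance. With the Mucl2 count as library size, the difference of 60 days from the mean of 30 and 90 days was 0.56 for Pip on the log2 scale (adjusted p = 0.879), so it did not pass the test. Amy1 had 0.0126, 0.0196 and 0.0209 counts per 1000 Mucl2 counts at 30 days, 0.0334, 0.0355 and 0.0599 at 60 days, and 0.0469, 0.0531 and 0.0366 at 90 days. The rise of Amy1 after 30 days was thus present relative to Mucl2 too, with log2 fold changes of 1.28 and 1.37.

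**Figure D4:**
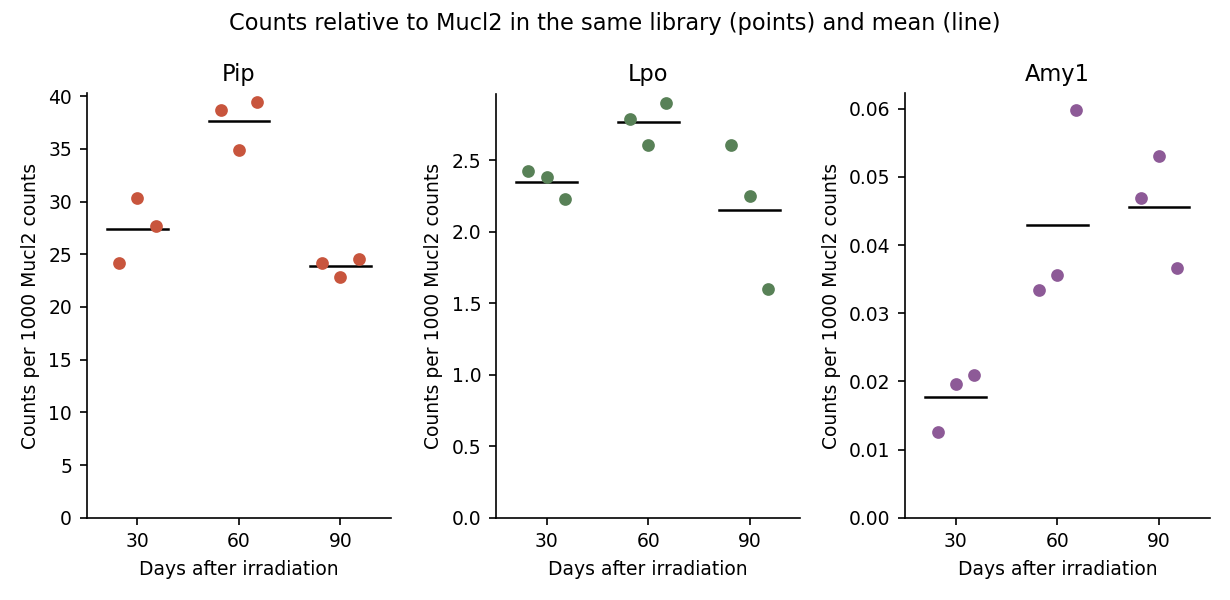
Counts of Pip, Lpo and Amy1 per 1000 Mucl2 counts of the same library against days after irradiation; points are libraries and lines are means, and each axis starts at 0. Pip reaches 34.9 to 39.4 at 60 days against at most 30.3 at 30 days and 24.5 at 90 days.

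Across the 9 libraries, Lpo and Pip varied together (Pearson r = 0.84 on log2 CPM), and Mucl2 had r = 0.74 with each of them. Amy1 had r = -0.54 with Mucl2, -0.37 with Lpo and -0.14 with Pip. These values describe 9 libraries that share their time points and scaling. Among 4827 genes with a mean of at least 20 CPM, the genes most like Pip were Wfdc12 (r = 0.98), Dhrs1 (0.96) and Uck2 (0.96). Those most like Lpo were Tent5c (0.98), Lima1 (0.97) and Fam13a (0.97). The closest to Mucl2 were Lrig1 (0.94), Tbc1d24 (0.92) and Eif4a2 (0.91), and the closest to Amy1 were Atp13a5 (0.99) and Itprid1 (0.99). Wfdc12, a small secreted protein with an antiprotease-type fold, had the same order of time points as Pip, with 639 ± 47.3 CPM (SD, n = 3) at 30 days, 758 ± 69.9 at 60 days and 377 ± 72.2 at 90 days.

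The nearest annotated neighbours of Mucl2, Pip, Lpo and Smr3a averaged at most 20.5 CPM. Mucl1, the mucin-like gene next to Mucl2, had 342 counts in all and shares 0.1% of the 50-base stretches of Mucl2. Sval2, which follows Pip on the same strand, averaged 8.99 CPM, and Sval3 had 0 counts. The Lpo neighbours Mpo and Epx, which encode the peroxidases of neutrophils and eosinophils, had 34 and 16 counts in all libraries together.

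Of 44 other saliva product genes listed beside the members, 26 were tested. The most abundant of them by CPM was Prol1, a submandibular mucin, with 84762 ± 26939 CPM at 30 days and 47725 ± 8126 at 90 days (log2 fold change -0.83 ± 0.24, adjusted p = 0.0621). Car6, a secreted carbonic anhydrase, had 32221 ± 5943 CPM at 30 days and 22003 ± 4094 at 90 days (-0.55 ± 0.22, adjusted p = 0.203). In 60 against 30 days 18 of the 26 were higher and 1 was called by edgeR. This was Pigr, the receptor that carries immunoglobulin A into saliva (0.67 ± 0.13, adjusted p = 0.0131). In 90 against 60 days 1 was called lower, Wfdc12 (-1.01 ± 0.14, adjusted p = 0.00167). In 90 against 30 days 4 were called higher and 1 lower: Pigr (1.17), Wfdc2 (0.89), Chia1 (2.79) and Crisp1 (2.91) rose, and Wfdc12 fell by 0.76. The largest of these changes start from low levels. Chia1 averaged 0.237 CPM at 30 days and 1.74 at 90 days, and Crisp1 averaged 3.09 and 23.7. In the 3 comparisons 5, 8 and 13 of the 26 had an unadjusted p under 0.05 by edgeR. DESeq2 called 4 higher in 60 against 30 days, and 1 higher and 2 lower in 90 against 60 days. In 90 against 30 days it called 4 higher and 3 lower. The list's median log2 fold change was 0.38, 0.32 and 0.66 in the 3 comparisons, beside medians near 0 over all genes. Several of the 26 genes behind it averaged less than 1 CPM, among them Prb1, Muc19, Ltf and Slpi, and their changes have large standard errors. In both comparisons with 90 days the median of the list was positive and that of the 4 tested members negative. The genes above 1000 CPM in the list, Prol1 and Car6, had negative values at 90 against 30 days as Mucl2, Pip and Lpo did.

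**Figure D5:**
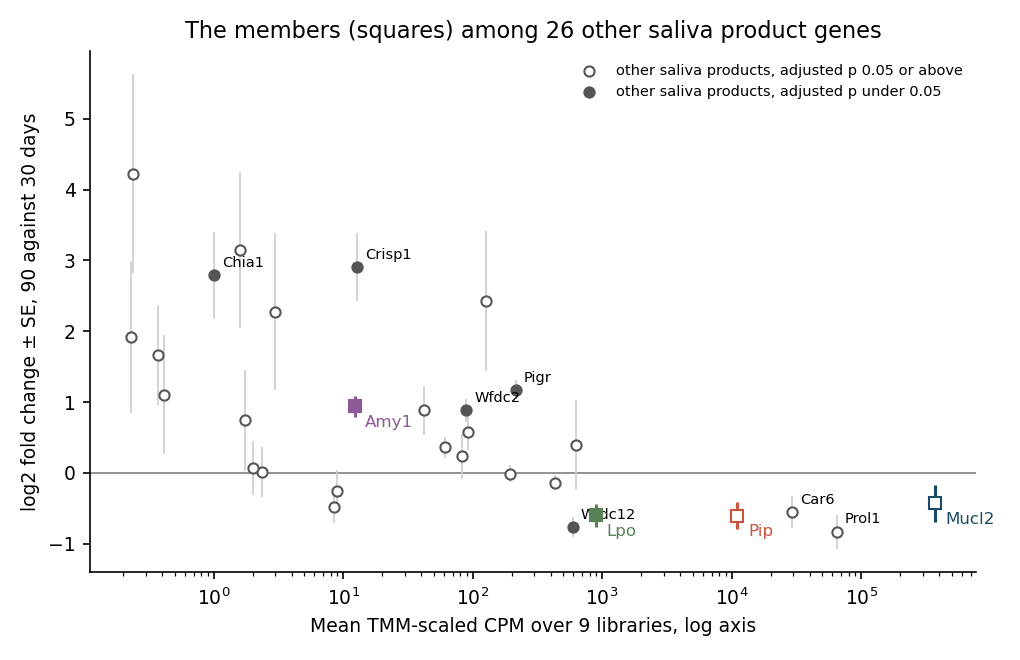
Log2 fold change of 90 against 30 days with SE (y axis) against mean TMM-scaled CPM over 9 libraries (log x axis) for 4 members (squares) and 26 other saliva product genes (circles), filled where the adjusted p is under 0.05. Mucl2, Prol1, Car6, Pip and Lpo, the 5 with the highest mean CPM, lie below 0, and Amy1 lies above it.

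Of 17 listed genes that encode other peroxidases or serve Lpo with peroxide, thiocyanate or haem, 8 were tested. In 60 against 30 days 0 were called by edgeR (1 at an unadjusted p under 0.05, 0 by DESeq2), and in 90 against 60 days 0 (3 unadjusted, 2 by DESeq2). In 90 against 30 days 1 rose, Duoxa2, the maturation factor of the hydrogen peroxide source Duox2, from 23.4 ± 3.33 to 41.4 ± 1.48 CPM (log2 fold change 0.82 ± 0.20, adjusted p = 0.0485). Duox2 itself had 94.2 ± 26.8 CPM at 30 days and 115 ± 21.8 at 90 days (adjusted p = 0.599), and Alas1, the first enzyme of haem synthesis, had 91.1 ± 4.48 and 69.4 ± 9.19 (adjusted p = 0.0767). The list's median log2 fold change was -0.15, 0.25 and 0.31.

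All members pass through the secretory pathway. Of 20 tested genes for entry to that pathway, 0 were called in any of the 3 comparisons by edgeR, 1, 1 and 4 had an unadjusted p under 0.05, and DESeq2 called 0, 0 and 1. They had median log2 fold changes of 0.05, -0.10 and -0.03, which turn to 0.07 and 0.20 in the later comparisons under library-size scaling. Of 28 tested genes for granule traffic and exocytosis, 3 rose in 60 against 30 days, 0 were called in 90 against 60 days (4 unadjusted, 0 by DESeq2) and 2 rose in 90 against 30 days. The risers at 60 days were Rab3a, a granule GTPase (0.84 ± 0.13, adjusted p = 0.00219), Unc13b, a priming factor (0.65 ± 0.13, 0.0111), and Snap23, a fusion protein (0.52 ± 0.11, 0.0227). Unc13b and Snap23 were also the pair called at 90 days (0.52 and 0.54). Medians were 0.06, -0.07 and 0.11, and the second turns to 0.10 under library-size scaling. Of 17 genes for mucin-type O-glycosylation, which adds sugars to mucin-like proteins, C1galt1 rose at 60 against 30 days (0.55 ± 0.12, adjusted p = 0.0248) and St6galnac1 at 90 against 30 days (1.74 ± 0.37, 0.0118), and 0 were called in 90 against 60 days (3 unadjusted, 0 by DESeq2). Under library-size scaling C1galt1 was not called, and limma-voom called 0 of the 17 in 90 against 30 days. Medians were 0.06, 0.07 and 0.20.

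Markers of acinar and granular duct cells were read beside the members. Of 7 acinar markers tested beside the members, 0 were called in 60 against 30 days (3 unadjusted, 2 by DESeq2), 1 fell in 90 against 60 days (Bhlha15, the acinar secretory regulator, -0.78 ± 0.12, adjusted p = 0.00581) and 3 fell in 90 against 30 days. These were the water channel Aqp5 (-0.57 ± 0.12, adjusted p = 0.0113), the muscarinic receptor Chrm3 (-0.53 ± 0.12, 0.0148) and the chloride channel Ano1 (-0.47 ± 0.11, 0.0245). Under library-size scaling 0, 0 and 1 of the 7 were called, and the median stayed negative. The summed level of the list, most of it Prol1, ran from 61393 to 115640 CPM at 30 days, 56766 to 72825 at 60 days and 39967 to 55080 at 90 days. Bhlha15 was highest at 60 days (510 ± 50.6 CPM, against 365 ± 23.9 and 297 ± 42.2), the order also seen for Pip. The list as a whole did not share this peak, as only 2 of the 7 were higher at 60 than at 30 days. Its median log2 fold changes were -0.13, -0.32 and -0.47 in the 3 comparisons. Granular ducts mark the submandibular gland in mice, and all 10 of their listed markers were detected. Of these, 9 rose in 60 against 30 days and 9 in 90 against 30 days (6 and 9 under library-size scaling). Their summed level was 21592 to 30155 CPM at 30 days, 43985 to 53537 at 60 days and 38947 to 53619 at 90 days, a rise at the same step as Amy1. The part of these cell types in the members' differences was not tested.

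Parotid markers were read beside Amy1 because mouse amylase is abundant in that gland. Of 7 such markers 4 were tested, and edgeR called 0 in each comparison (1, 2 and 3 unadjusted, and 0, 1 and 1 by DESeq2). Prpmp5, Prh1, Prb1 and Cst10 stayed below 1 CPM in each library. Bpifa2 ranged from 14.1 to 403 CPM and was highest in the second library of 90 days. Of the 4 tested, 4 had a positive log2 fold change in 60 against 30 days, 2 in 90 against 60 days and 3 in 90 against 30 days. Their medians were 1.04, 0.28 and 1.22, beside 1.08, -0.14 and 0.94 for Amy1. These medians include Prb1, at less than 1 CPM. Car6, the most abundant of the 4, had 0.07, -0.62 and -0.55, and Bpifa2 had 1.26, 1.17 and 2.43. The summed level of the 7 markers, nearly all of it Car6, had a median of 29836 CPM at 30 days, 35036 at 60 days and 20373 at 90 days. The part of parotid tissue in the Amy1 difference was not tested. Of 5 sublingual markers 4 were tested and 0 called by edgeR or DESeq2 (0, 1 and 2 unadjusted), with Smgc at 147 to 1138 CPM. By edgeR 0 of the tested markers of striated ducts (3, 3 and 2 unadjusted), leukocytes (0, 3 and 2), endothelium, fibroblasts, adipocytes and skeletal muscle (0 in each) were called, and DESeq2 called 1 leukocyte marker in each comparison with 90 days. Among basal and myoepithelial markers Trp63 rose in 90 against 30 days (0.92 ± 0.21, adjusted p = 0.0289), where DESeq2 and library-size scaling each called 3 of the 6 tested and limma-voom called 0.

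The step from 30 to 60 days was set against that from 60 to 90 days by testing 60 days against the mean of 30 and 90 days, where 0.256% of tested genes were called. Amy1 was the 1 member called, at 0.61 ± 0.12 on the log2 scale (adjusted p = 0.0418). Pip had a nearly equal value, 0.59 ± 0.16, with an adjusted p of 0.171, and Lpo had 0.34 ± 0.14 (0.415). Mucl2 had 0.03 ± 0.23 (0.981). The Amy1 call was lost in 11 of 18 alternatives, with values from 0.51 to 0.72 over all of them. Of the 9 fits that leave out a library, 2 kept it, those without the third library of 30 days (adjusted p = 0.0497) and without the first of 60 days (0.0153).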

How the data were processed

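Bulk RNA sequencing of irradiated submandibular glands gave 9 libraries, 3 for each of 30, 60 and 90 days. The authors deposited raw read counts for 54532 Ensembl identifiers, and fastp, STAR, featureCounts and mm10 are named in the submitters' processing notes, without versions. The annotation and the use of strand are not given in the sources used here. Per the labels' protocols, RNA came from 4 sections of 50 µm per gland. The table has 3 more columns whose names fit none of the listed samples, and these were left out. Symbols were found for 54409 identifiers, and 54495 are in GENCODE mouse release 21 (GRCm38), which gave positions and lengths. Groups follow the time point in the titles. Genes were filtered with filterByExpr (minimum count 10), which left 15224 of 27001 genes with a count, scaled with TMM, and fitted with edgeR 4.0.16 (glmQLFit, robust; glmQLFTest) over all 9 libraries with a term for time point. Benjamini-Hochberg adjustment ran over all tested genes, and 0.05 was the threshold. The common biological coefficient of variation was 0.150. Levels are mean ± SD of 3 libraries, and correlations used log2 CPM with a prior count of 2. The Mucl2 share was tested by exact permutation. R 4.3.3, DESeq2 1.42.0, limma 3.58.1, Python 3.11.15, scipy 1.17.1 and matplotlib 3.10.9 were used. Tested on simulated data with 200 changed genes among 14957 for 60 against 30 days, edgeR recovered 76% of genes changed by a log2 fold change of 1 and 95% of those changed by 2, with 7.07% false calls. The lowest-level genes were not among those changed. Apart from the changes, the simulated libraries shared the same gene proportions. Shifts in composition between the real libraries were therefore not covered.

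Total counts were 16541396 to 26065856 per library, TMM factors 0.825 to 1.19, and mitochondrial genes took 1.54% to 2.37% of counts. Libraries of a time point differed by more than counting noise (chi-square per degree of freedom 10.2 to 34.8), so no pair was counted as 1 library deposited again. This does not show that they came from separate animals. The members, gene lists and marker lists were chosen with earlier results of these data known. Besides the 5 members, named genes are, per list, those with an adjusted p under 0.05 in a pairwise comparison (at most 4 per list and comparison, smallest adjusted p first) and the 3 most abundant, and, per member, the 3 genes with the highest correlation, 1 of which is not reported here. Neighbouring and overlapping genes, the low parotid markers and Smr2 were added for context after their values were seen. Alternatives were other scalings, DESeq2, limma-voom, other filters, fewer libraries, a block and, added after seeing the data, the Mucl2 count as library size.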

Additional observations from a re-analysis of the deposited data

Results flagged for a closer look

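For Amy1 the step from 30 to 60 days differed from the step from 60 to 90 days: 60 days stood 0.61 ± 0.12 (SE, log2) above the mean of 30 and 90 days (edgeR, adjusted p = 0.0418, n = 3 per time point). The mean level was 7.33 ± 0.769, 15.5 ± 2.35 and 14.1 ± 0.291 CPM (SD) at 30, 60 and 90 days. At 288 to 412 counts the 90-day SD was smaller than counting error alone, so it may understate the spread between libraries. The adjusted p ranged from 0.00124 to 0.9999 over 18 alternatives.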

How the results depend on the processing

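Of the 4 tested members, the number called in 60 against 30 days was 1 in all 19 alternatives. For 90 against 60 days, where 0 were called (1637 of all tested genes had an unadjusted p under 0.05), the number was 1 with library-size scaling, 1 with the members left out of the total, 1 with limma-voom, 2 with DESeq2 and 2 without the filter. Leaving out a library in turn gave 0 to 2. The sample number as a replicate block gave 1, Lpo (adjusted p = 0.0362). Same-numbered libraries had correlations of -0.06 to 0.19 in their deviations from the time-point means, and differently numbered ones -0.21 to 0.19. This gave no sign that the numbers pair the libraries, and with so few libraries it cannot exclude it. Over all genes, calls in 60 against 30, 90 against 60 and 90 against 30 days were 238, 39 and 544, and 270, 92 and 717 with the block, 369, 141 and 860 with DESeq2, 459, 354 and 1045 without the filter, 90, 28 and 440 with library-size scaling, 112, 27 and 374 with the members left out, and 97, 65 and 609 with Mucl2 as library size. With a library left out they fell to as few as 73 (without the second of 60 days), 16 (without the second of 90 days) and 184 (without the first of 30 days), and reached 103 in 90 against 60 days without the third of 60 days. For 90 against 30 days the number was 1 instead of 2 with library-size scaling, with the members left out and with Mucl2 as library size, 3 with DESeq2, limma-voom and no filter, and 1 to 2 with a library left out. For 60 days against the mean of the others it was 0 instead of 1 with library-size scaling, with the members left out, with limma-voom and with Mucl2 as library size, 2 with DESeq2, 3 without the filter, and 0 to 1 with a library left out. Directions turned for small values only: Lpo at 60 against 30 days was -0.059 to 0.24 with a library left out, Amy1 at 90 against 60 days was 0.025 with library-size scaling and 0.087 with Mucl2 as library size, and Mucl2 at 60 days against the mean of the others was -0.031 with library-size scaling, -0.042 with the members left out and -0.10 to 0.18 with a library left out. For 60 days against the mean of the others, 39 genes were called, 20 with library-size scaling, 129 with DESeq2, 230 without the filter, 73 with the block and 13 to 81 with a library left out. Over all tested genes the median change (log2) in the 3 pairwise comparisons was -0.0025, 0.0008 and 0.0135 with TMM, 0.05, 0.17 and 0.24 with library-size scaling, and 0.19, 0.25 and 0.45 with Mucl2 as library size. The cause of these changes was not tested. At 92 to 426 counts Amy1 is the one tested member for which depth limits precision.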
